A study of Mus musculus with 9 samples.

Results

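Of the 24346 gene rows in a table of 9 mouse mammary tumour cell libraries, 7 carried the symbols of the complement components and regulators described here: C3, C4b, Cfb, C1ra, Serping1, Cd55 and Cd59a. They were chosen by symbol, and each symbol was found once. Gene expression was measured by RNA sequencing in lines from mammary tumours of the FVB/N strain, induced by MMTV-neu, a transgene that expresses the neu oncogene in mammary epithelium from a mammary tumour virus promoter. The study set lines labelled as knockout for Jak1, the Janus kinase that relays signals from interferon and gp130-family receptors, against lines labelled wild type. The 4 Jak1 knockout libraries were lines 45555, 47298 and 45566B, titled Cre, and line 46295, titled D6. The 5 Jak1 wild-type libraries were the same lines 45555, 47298 and 45566B, titled Wt, and lines 33373 and 33377. All were adherent cultures in 5% serum with added insulin, EGF and hydrocortisone, and lines 45555, 47298 and 45566B were treated with puromycin in both states. Each line and state was 1 library, the labels name no separate cultures, and the labels do not say how line 46295 lost Jak1.

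Complement is a cascade of plasma and tissue proteins that marks cells for clearance and can pierce their membranes. The classical pathway starts with C1, whose proteases C1r and C1s lead to cleavage of C4 and C2, the alternative pathway uses factor B, and both make convertases that cleave C3. Host cells are shielded by inhibitors of the proteases (C1 inhibitor), of the convertases (CD55) and of the membrane attack complex (CD59). The liver makes most plasma complement, but epithelial cells and fibroblasts make several components too, and cytokines are known to induce them. Interferon gamma induces C1 inhibitor, factor B and C4, and interleukin-1 and interleukin-6 induce C3 and factor B.

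Levels are given in FPKM, fragment numbers scaled to transcript length and to sequencing depth, which can be compared between genes. Library sums ran from 567403 to 721751 FPKM and 10821 to 11622 genes reached 1 FPKM. The absolute number of fragments is unknown. The steps between low values placed depth between 0.416 and 1 of that of 45566B wild type, the deepest. Unlike the other 7, the columns named for 33373 and 33377 end without a suffix, and whether all 9 are on 1 scale was not tested, so the comparison of all libraries is also given without these lines. Jak1 itself was at 74.4 FPKM in knockout and 86.7 in wild-type cells of line 45555, 27.5 in knockout and 63.1 in wild-type cells of line 47298, and 14.2 in knockout and 16.1 in wild-type cells of line 45566B. In 46295 knockout it was at 22.97 FPKM, against 19.4 in 33373 and 54.6 in 33377 wild type. These whole-gene values would miss a deleted exon, so they check the labels weakly.

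The labelled tissue was checked against its markers. The epithelial adhesion gene Epcam had 681, 524, 720.1 and 419.8 FPKM in 45566B knockout, 46295 knockout, 45566B wild type and 33373 wild type. It was at 2.36 FPKM in 33377 wild type and below 1 FPKM in both states of 45555 and 47298. The epithelial keratin genes Krt8 and Krt18 were also below 1 FPKM in both states of 45555. Krt8 was, however, at 157 FPKM in knockout and 38.5 in wild-type cells of line 47298 and at 74.9 in 33377 wild type, and Krt18 was at 250.3, 52.7 and 74.8 FPKM in the same libraries. Another keratin gene, Krt7, was at 5.14 FPKM in knockout and 3.34 in wild-type cells of 45555. Krt19 went the other way from Epcam, at 4.70 and 5.37 FPKM in knockout and wild-type cells of 45555. It was at 5.97 FPKM in 47298 wild type and at or below 0.307 in the other libraries. The summed level of the 10 luminal markers was 12.5 FPKM in knockout and 10.3 in wild-type cells of 45555, 493 in knockout and 118 in wild-type cells of 47298, and 167 in 33377 wild type. It was 3682 FPKM or more in the other 4 libraries. Of 10 macrophage and leukocyte markers, 5 (Ptprc, Adgre1, Csf1r, Tyrobp and Laptm5) were below 1 FPKM in every library, but the summed level of the 10 ran from 4.32 to 422 FPKM in knockout and from 5.71 to 516 in wild-type libraries. Most of it was Cd14, the lipopolysaccharide co-receptor, at 389 FPKM in 45566B knockout, 310.5 in 46295 knockout, 504 in 45566B wild type and 317 in 33373 wild type, and at or below 27.9 in the other 5. Cd68, a lysosomal protein of macrophages, was at 106 FPKM in 46295 knockout, 17.7 in 33373 wild type and at or below 8.84 in the other 7 libraries, and Lyz2, Fcer1g and Aif1 were at or below 3.09 FPKM in all 9. The part of these cell markers in the results was not tested. The 6 hepatocyte markers were also below 1 FPKM in every library, and Apoc3 and Fgb were listed at 0 throughout. The other marker lists follow beside the genes they moved with.

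In build mm10 (GRCm38, GENCODE vM21 annotation), 3 of the 7 genes lie on chromosome 17, namely C3 (57203970 to 57228136), C4b (34728380 to 34743882) and Cfb (34856374 to 34862518), each on the minus strand. C1ra lies on chromosome 6 (124512405 to 124523443, plus strand) and Cd55 on chromosome 1 (130439027 to 130462744, minus strand). Serping1 (84765387 to 84775444, minus strand) and Cd59a (104095801 to 104115354, plus strand) lie on chromosome 2. All 7 are annotated as protein coding. The presence of near-identical copies limits how reads can be assigned. The longest annotated transcripts aligned at 97.9% identity over 2431 bases for C1ra and C1rb, and at 95.9% over 5378 bases for C4b and C4a. Cd55 and Cd55b aligned at 91.6% over 1157 bases, and Cd59a and Cd59b at 83.2% over 739 bases. Cfb also overlaps Gm20547 on the same strand, a locus that overlaps C2 as well, so Cfb reads may be shared with it.

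RefSeq promoter windows (GRCm38.p6, strain C57BL/6J) matched 4 of the 7 genes, C3, C1ra, Cd55 and Cd59a. The 250 bases before the start were searched on both strands for 4 core motifs of factors that act downstream of cytokine receptors. The motifs were the GAS core (TTC and GAA separated by 3 bases), bound by STAT dimers, and the ISRE core (GAAA and GAAA separated by 2 bases), bound by interferon-activated complexes. The others were the C/EBP core (TTGC and AA separated by 2 bases) and the NF-kappaB core (GGGA and CC separated by 4 bases). Of 32851 windows of the same length, 7.02% held the GAS core, 2.98% the ISRE core, 9.56% the C/EBP core and 17.6% the NF-kappaB core. The windows of C3, with the highest level of the 7 in most libraries, and of the 2 membrane regulators are shown because each held at least 1 match. Capitals mark the matches, and each sequence runs 5′ to 3′ on the gene's strand at chr17:57228137-57228386 (minus), chr1:130462745-130462994 (minus) and chr2:104095551-104095800 (plus).
C3: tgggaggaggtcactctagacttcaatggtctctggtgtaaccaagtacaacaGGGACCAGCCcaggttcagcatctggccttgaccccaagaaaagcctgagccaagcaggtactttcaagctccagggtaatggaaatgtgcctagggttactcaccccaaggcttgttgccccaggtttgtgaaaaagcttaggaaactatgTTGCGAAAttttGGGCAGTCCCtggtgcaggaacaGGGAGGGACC
Cd55: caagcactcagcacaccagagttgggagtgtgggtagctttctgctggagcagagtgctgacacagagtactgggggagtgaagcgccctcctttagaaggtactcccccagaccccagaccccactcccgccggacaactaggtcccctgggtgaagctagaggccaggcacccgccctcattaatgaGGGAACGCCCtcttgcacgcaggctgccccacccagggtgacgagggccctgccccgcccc
Cd59a: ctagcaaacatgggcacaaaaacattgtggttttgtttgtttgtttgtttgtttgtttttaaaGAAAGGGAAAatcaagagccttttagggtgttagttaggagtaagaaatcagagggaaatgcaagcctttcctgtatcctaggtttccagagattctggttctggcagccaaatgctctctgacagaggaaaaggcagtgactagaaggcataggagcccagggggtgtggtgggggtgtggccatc
The C3 window held 1 C/EBP core match, TTGCGAAA, from 45 to 38 bases before the start. It also held 3 NF-kappaB core matches, GGGACCAGCC, GGGCAGTCCC and GGGAGGGACC, of which the last ends 1 base before the start. The Cd55 window held 1 NF-kappaB core match, GGGAACGCCC, and the Cd59a window 1 ISRE core match, GAAAGGGAAA, 187 to 178 bases before the start. No match overlapped another, and the window of C1ra (chr6:124512371-124512620, plus) held none of the 4 motifs. The GENCODE annotation starts C1ra at 124512405, so most of that window lies inside the gene as given above and not before it. A match describes letters in the reference and not binding.

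Within lines, the first question was what differed with the Jak1 label against the same line's wild-type library. Cfb and C1ra had lower values in the knockout library of each of 3 lines, C4b was lower in 45555 and 47298 and near 0 in both states of 45566B, and C3 and Serping1 were each far lower in 1 line. Cd55 and Cd59a were higher in knockout in some lines and lower in others. No gene passed in the test of the 3 pairs (limma on log2(FPKM + 1) with line as a block, two-sided, Benjamini-Hochberg adjustment at 0.05), so the values below are differences between libraries and not called changes. Of 12063 genes tested, 0% were called and 3.37% had an unadjusted p under 0.05, 406 genes in all, and the other limma settings tried also called 0.

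The 7 genes passed the filter (a mean of 1 FPKM or more), but C4b did so only through wild-type libraries and Serping1 almost wholly through 47298 wild type. Leaving out C4b, which the filter kept only for its wild-type level, 2 of the other 6 genes (Cfb and C1ra) were lower in the knockout library of all 3 lines, against 13.3% of all tested genes. C4b was lower in all 3 only by counting 0 against 0.00469 FPKM in 45566B. None of the 7 was higher in all 3 lines, against 14.3%. On average over the pairs C3 (log2 fold change -1.52), Cfb (-1.76) and C1ra (-1.20) were lower, and Cd55 (0.14) and Cd59a (0.06) higher. Among all tested genes 51.4% were lower, with a median of -0.01. Serping1 was lower too, but the filter kept it only for its wild-type level, so its direction is not counted. In line 45555, C3 and C1ra were at least 2-fold lower on the log2(FPKM + 1) scale, against 6.68% of tested genes. Cd59a was at least 2-fold higher there, against 3.2%. In line 47298, Cfb and C1ra were at least 2-fold lower, against 11%, and 0 of the 7 were at least 2-fold higher, against 8.49%. C4b in both lines and Serping1 in 47298 were also at least 2-fold lower. The filter kept C4b and Serping1 only for their wild-type levels, so they are not set against these shares. In line 45566B only Cfb of the 7 was at least 2-fold lower, against 2.17%, and 0 were at least 2-fold higher, against 0.854%.

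**Figure D1:**
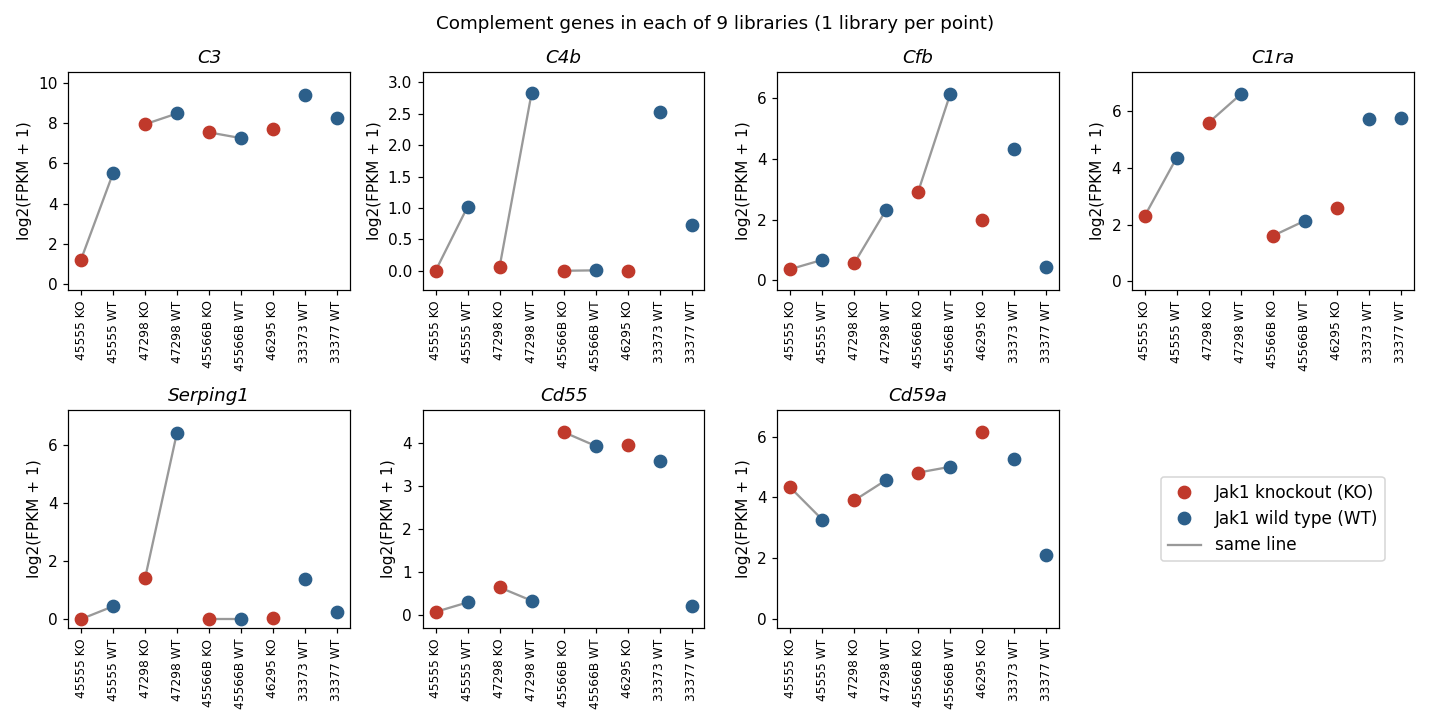
Level of each of the 7 complement genes as log2(FPKM + 1) (vertical axis, a different range in each panel) in the 9 libraries (horizontal axis), with Jak1 knockout in red, Jak1 wild type in blue and grey lines joining the libraries of 1 line. Cfb and C1ra lie lower in knockout in each joined pair, Serping1 stands at 84.5 FPKM in 47298 wild type and below 2 FPKM elsewhere, and Cd55 splits the libraries by line and not by state.

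C3, the protein on which all activation routes converge, was the most abundant of the 7 genes in every library except 45555 knockout, where Cd59a was higher. C3 was at 1.30 FPKM in knockout and 44.6 FPKM in wild-type cells of line 45555. In line 47298 it was at 247.6 FPKM in knockout and 360.1 in wild type, and in line 45566B at 187 in knockout and 153 in wild type. The other libraries held 209.7 FPKM in 46295 knockout, and 694 in 33373 and 313 in 33377 wild type. The knockout value was 34.4-fold lower than wild type in 45555 and 1.45-fold lower in 47298, and 1.22-fold higher in 45566B, so the 2 states overlapped over all libraries. Ranked from the highest gene of a library, C3 stood at place 10551 in 45555 knockout and 2090 in 45555 wild type, and between 123 and 609 in the other 7 libraries. Over the 3 pairs its log2 fold change was -1.52 ± 0.99 (SE, limma, adjusted p = 0.762), and -0.13 without line 45555.

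C3 carried 5.26% of the summed FPKM of the 7 genes in 45555 knockout and 59.4% in 45555 wild type. In the other libraries it carried between 56.5% (45566B wild type) and 84.6% (33373 wild type). The summed level of the 7 genes was 24.7 FPKM in 45555 knockout and 75.1 in 45555 wild type, 312 and 574 in 47298 knockout and wild type, and 240.6 and 270.4 in 45566B knockout and wild type. In the remaining libraries the sum was 302 FPKM in 46295 knockout, and 821 in 33373 and 371 in 33377 wild type.

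Cfb encodes factor B, the protease subunit of the alternative-pathway C3 convertase. It was at 6.55 FPKM in knockout and 68.7 FPKM in wild-type cells of line 45566B, and at 0.477 and 4.01 FPKM in knockout and wild-type cells of line 47298. In line 45555 it was low in both states, at 0.294 FPKM in knockout and 0.598 in wild type. The knockout value was thus 10.5-fold lower in 45566B, 8.40-fold lower in 47298 and 2.04-fold lower in 45555. Unlike the 3 pairs, the unpaired libraries did not separate by state, with 3.01 FPKM in 46295 knockout, and 19.0 in 33373 and 0.362 in 33377 wild type. The 2 highest libraries, 45566B wild type and 33373 wild type, were both Epcam-high and wild type, and the Epcam-high knockout libraries held 6.55 and 3.01 FPKM. Over the pairs the log2 fold change was -1.76 ± 0.61 (SE, limma, unadjusted p = 0.0429, adjusted p = 0.762), and it was -2.48 without 45555, -1.76 without 47298 and -1.03 without 45566B.

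C4b encodes C4, which is cleaved by C1s and forms the classical-pathway convertase with C2. In line 47298 it stood at 0.0433 FPKM in knockout, the only knockout library in which it was not listed at 0, against 6.11 FPKM in wild type. In line 45555 it was listed at 0 in knockout and stood at 1.03 FPKM in wild type, and in 45566B it was listed at 0 in knockout and at 0.00469 FPKM in wild type. It was also listed at 0 in 46295 knockout, against 4.74 FPKM in 33373 and 0.654 in 33377 wild type. The highest knockout value lay above 1 wild-type library, 45566B, and below the other 4. The log2 fold change over the pairs was -1.27 ± 0.61 (SE, limma, adjusted p = 0.762), -0.51 without 47298. C4a, the near-identical copy, was at or below 0.179 FPKM in every library.

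C1ra encodes C1r, the protease that activates C1s inside the C1 complex. Its level was 3.94 FPKM in knockout and 19.6 FPKM in wild-type cells of line 45555, 47.6 and 96.3 in knockout and wild-type cells of line 47298, and 2.03 and 3.38 in knockout and wild-type cells of line 45566B. The knockout values were 4.98-fold, 2.02-fold and 1.67-fold lower in these lines. In the other lines, 46295 knockout held 5.07 FPKM, and 33373 and 33377 wild type held 52.6 and 53.2. The highest knockout value, in 47298, lay above 2 of the 5 wild-type values. Over the pairs the log2 fold change was -1.20 ± 0.35 (SE, limma, unadjusted p = 0.0244, adjusted p = 0.762), and it ranged from -1.53 to -0.77 when 1 line was left out.

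Serping1 encodes C1 inhibitor, the serpin that inactivates C1r, C1s and the lectin-pathway proteases. In line 47298 it was at 1.64 FPKM in knockout and 84.5 FPKM in wild type, a 51.5-fold lower value in knockout. In 45555 it was listed at 0 in knockout and stood at 0.357 FPKM in wild type, and in 45566B it was listed at 0 in both states. The remaining libraries held 0.0361 FPKM in 46295 knockout, and 1.59 in 33373 and 0.196 in 33377 wild type. Only 1 of 9 libraries thus held more than 2 FPKM. The log2 fold change over the pairs was -1.82 ± 1.13 (SE, limma, adjusted p = 0.762), and without 47298 it was -0.22.

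The libraries of line 47298 also differed in markers of other cell types. Of 8 fibroblast markers 6 were lower in 47298 knockout and 2 higher, and their summed level was 355 FPKM in knockout and 5634 in wild type. Most of the wild-type sum was Col1a1 and Col1a2, at 1728 and 2510 FPKM, against 65.5 and 94.3 in knockout. The 2 higher markers were Dcn, at 27.3 FPKM in knockout and 12.2 in wild type, and Lum, at 0.240 and 0.150. Of 6 adipocyte markers 5 were lower and 0 higher, with sums of 15.6 FPKM in knockout and 910 in wild type, and Adipoq, the adipocyte hormone adiponectin, was at 0.0437 and 12.6 FPKM. Most of the adipocyte sum in every library was Fabp4, at 15.5 FPKM in knockout and 885 in wild-type cells of 47298. In line 45555 Fabp4 was at 311 FPKM in knockout and 331 in wild type, and Adipoq was listed at 0 in both states. Of 10 luminal epithelial markers 9 were higher, with sums of 493 FPKM in knockout and 117.6 in wild type. Over all libraries the fibroblast sums ran from 1.30 to 3991 FPKM in knockout and from 1.08 to 5634 in wild type. The adipocyte sums ran from 0.668 to 311 FPKM in knockout and from 1.77 to 910 in wild type, and the luminal sums from 12.5 to 4543 in knockout and from 10.3 to 3867 in wild type. The part of these differences in the values of Serping1, C4b, Cfb and C1ra in line 47298 was not tested. In a bulk library, fewer cells of a type and less RNA per cell cannot be told apart. In line 45555, 8 of 8 fibroblast markers were lower in knockout, with sums of 3991 FPKM in knockout and 5270 in wild type, where C3 was 34.4-fold lower. In line 45566B, where Cfb was 10.5-fold lower, fibroblast sums were 1.30 and 1.08 FPKM and luminal sums 4145 and 3867 FPKM in knockout and wild type.

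**Figure D2:**
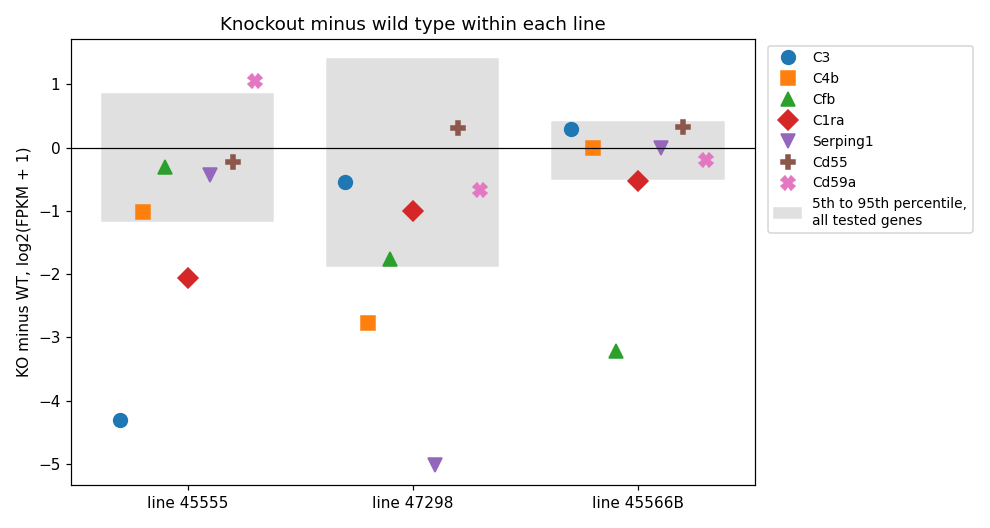
Difference of knockout minus wild type in log2(FPKM + 1) (vertical axis) for each of the 7 genes within lines 45555, 47298 and 45566B (horizontal axis), with grey boxes for the 5th to 95th percentile of all 12063 tested genes in that line. The lowest gene is C3 in 45555 (-4.31), Serping1 in 47298 (-5.02) and Cfb in 45566B (-3.21), and Cd55 and Cd59a lie at or above -0.67 in each line.

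The membrane regulators Cd55 and Cd59a had no common direction with the Jak1 label. Cd55, or decay-accelerating factor, dissociates C3 and C5 convertases on the cell surface. It was at 18.1 FPKM in knockout and 14.3 FPKM in wild-type cells of line 45566B, at 14.6 in 46295 knockout and at 11.04 in 33373 wild type. In the other libraries it was at or below 0.561 FPKM, with 0.0507 in knockout and 0.226 in wild-type cells of line 45555, 0.561 and 0.259 in knockout and wild-type cells of line 47298, and 0.164 in 33377 wild type. The 4 libraries with Cd55 above 10 FPKM were the same 4 in which Epcam reached 419.8 FPKM or more. The log2 fold change over the pairs was 0.14 ± 0.23 (SE, limma, adjusted p = 0.872), while among the 5 wild-type lines alone Cd55 spanned an 87.3-fold range.

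Cd59a encodes a lipid-anchored surface protein that blocks the assembly of the membrane attack complex. It was at 19.1 FPKM in knockout and 8.64 FPKM in wild-type cells of line 45555, 13.9 and 22.8 in knockout and wild-type cells of line 47298, and 27.1 and 31.1 in knockout and wild-type cells of line 45566B. Its highest value was 69.3 FPKM in 46295 knockout, and the wild-type lines 33373 and 33377 held 37.6 and 3.31. The knockout library was higher in 1 line and lower in the other 2. The log2 fold change over the pairs was 0.06 ± 0.39 (SE, limma, adjusted p = 0.963), and without 45555 it was -0.43. Unlike Cd55, Cd59a stood above 3 FPKM in every library.

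The second question was how all 4 knockout libraries differed from all 5 wild-type libraries, which mixes differences between lines with those of state. None of the 7 genes had knockout and wild-type libraries that did not overlap, against 0.443% of 12198 tested genes, of which 0.303% had every knockout library below every wild-type library and 0.139% the reverse. limma called 0% of these genes, with 144 (1.18%) at an unadjusted p under 0.05, and 0 of the 6 genes other than C4b. C4b, near or at 0 in every knockout library, had a log2 fold change of -1.41 ± 0.60 (SE, limma, adjusted p = 1.000). On average C3 (log2 fold change -1.69), Cfb (-1.31) and C1ra (-1.89) were lower in knockout, and Cd55 (0.56) and Cd59a (0.75) higher. Among tested genes 49.8% were lower, with a median of 0.00. Serping1 (-1.33) was lower too, but the filter kept it only for its wild-type level, so its direction is not counted. The SD between wild-type lines ran from 1.21 to 2.69 log2 units over the 7 genes. On the log2(FPKM + 1) scale C3 averaged 6.11 ± 3.28 in knockout (SD, n = 4) and 7.80 ± 1.496 in wild type (SD, n = 5). C1ra averaged 3.03 ± 1.77 in knockout and 4.92 ± 1.75 in wild type, Cfb 1.46 ± 1.21 and 2.78 ± 2.43, and Serping1 0.36 ± 0.69 and 1.70 ± 2.69. C4b averaged 0.02 ± 0.03 in knockout and 1.42 ± 1.21 in wild type, Cd55 2.23 ± 2.18 and 1.67 ± 1.91, and Cd59a 4.79 ± 0.97 and 4.04 ± 1.33. Without 45555 knockout the log2 fold change of C3 was -0.06 in place of -1.69, and without 47298 wild type that of Serping1 was -0.15 in place of -1.33. That of Cfb was -0.48 without 45566B wild type in place of -1.31. Without lines 33373 and 33377 the values were -0.98 for C3, -1.27 for C4b, -1.58 for Cfb, -1.34 for C1ra, -1.92 for Serping1, 0.71 for Cd55 and 0.51 for Cd59a. The comparisons share 6 libraries, so they are not independent of each other.

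A list of 56 complement genes, of which 55 were in the table, gave the setting of the 7 genes. Of these, 26 reached 1 FPKM in at least 1 library, 23 stayed below 1 FPKM but above 0 in some library, and 6 were listed at 0 throughout. Of 21 genes tested over the pairs, 15 were lower and 6 higher on average, with 0 called (limma) and 2 lower at an unadjusted p under 0.05, C1ra and Cfb. Of all tested genes 51.4% were lower on average and 3.37% had an unadjusted p under 0.05. Among the 15, C4b and Serping1 passed the filter only through their wild-type levels, so their direction adds nothing to the count. Cfp, Susd4 and Itgb2, among the 6 higher, likewise passed only through their knockout levels. The median log2 fold change of the 14 tested genes outside the 7 was -0.21, with 10 lower and 4 higher.

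C1s1, which encodes the C4-cleaving protease C1s, was at 2.31 FPKM in knockout and 29.6 FPKM in wild-type cells of line 45555, and at 63.3 and 155 FPKM in knockout and wild-type cells of line 47298. In 45566B it was at 0.204 FPKM in knockout and 0.189 in wild type, so the C1s1 difference was seen in 2 of 3 lines. C1rb, whose reads cannot be fully told from those of C1ra, was at 4.30 and 9.04 FPKM in knockout and wild-type cells of line 47298. The C1q chains that carry these proteases, C1qa, C1qb and C1qc, were at or below 0.262 FPKM in every library. Of 7 tested initiation genes of the classical and lectin pathways 7 were lower on average, against 51.4% of all tested genes, and 3 (C1ra, C1rb and C1s2) in each of the 3 lines, against 13.3%. In 45566B, however, C1rb was at 0.319 FPKM in knockout and 0.322 in wild type, and C1s2 was listed at 0 in knockout and at 0.00989 FPKM in wild type.

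C2, the partner of C4 in the classical convertase, was at 3.74 FPKM in knockout and 23.5 FPKM in wild-type cells of line 47298, and at 0.386 and 1.98 in knockout and wild-type cells of line 45555. In 45566B C2 was at 0.287 FPKM in knockout and 0.508 in wild type, so it was lower in knockout in each of the 3 lines (log2 fold change -1.23, SE 0.47, limma, adjusted p = 0.762). Cfp, or properdin, stabilises the alternative convertase. In knockout against wild type it was at 1.22 against 0.953 FPKM in 45555, 2.76 against 1.22 in 47298 and 0.585 against 0.405 in 45566B. Of the 21 tested genes of the list it was the 1 that was higher in knockout in each line, against 14.3% of all tested genes. The filter kept Cfp only for its knockout levels, so its direction adds nothing to that count.

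Among the fluid-phase regulators, Clu, or clusterin, which binds the nascent membrane attack complex, was at 1695 FPKM in knockout and 1769 FPKM in wild-type cells of line 45566B, at 740 in 46295 knockout and at 1681 in 33373 and 287 in 33377 wild type. In line 47298 Clu was at 29.5 FPKM in knockout and 12.3 in wild type, 2.40-fold higher in knockout, and in both states of 45555 it was at or below 1.93 FPKM. Cr1l, the rodent membrane regulator Crry, stood above 18 FPKM in every library, at 18.02 to 55.4 FPKM in knockout and 31.1 to 68.7 FPKM in wild-type libraries. Of 5 tested membrane regulators 2 were lower and 3 higher on average, where 51.4% of all tested genes were lower, and the median log2 fold change was 0.06. Of the 3 that were higher, Susd4 passed the filter only through its knockout levels.

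**Figure D3:**
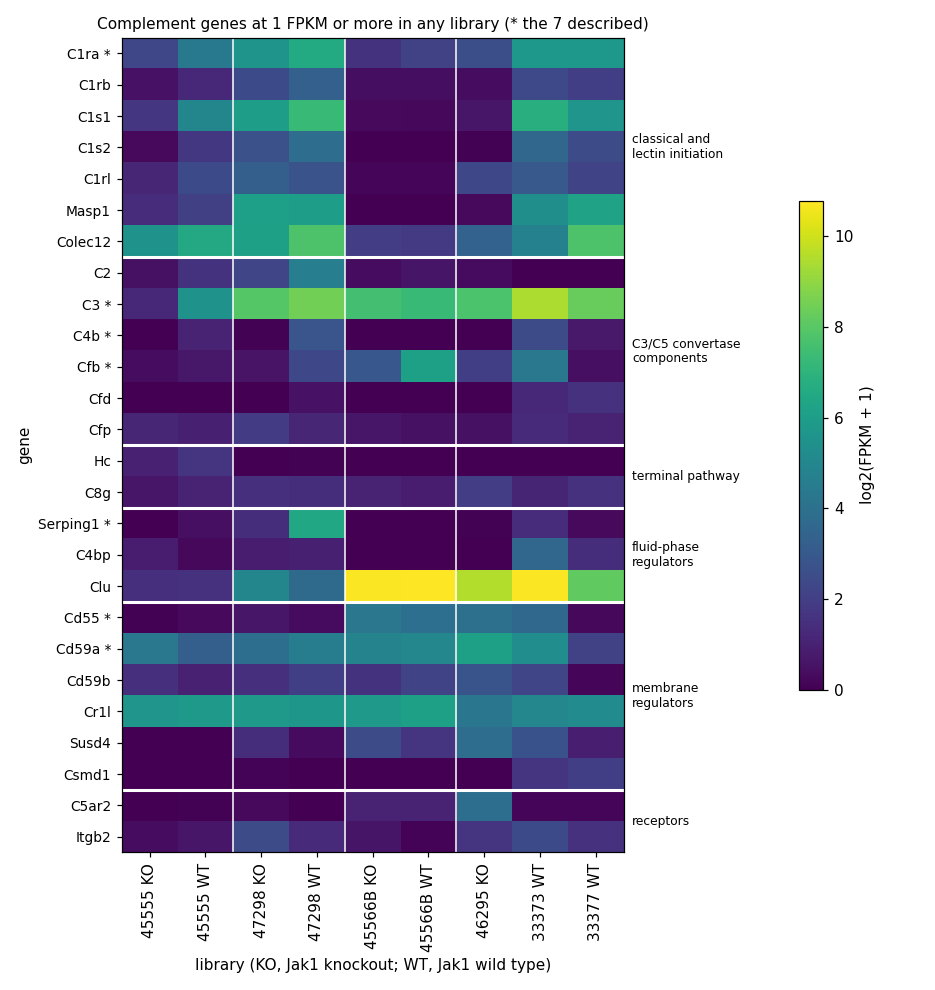
Level as log2(FPKM + 1) (colour) of the 26 complement genes that reached 1 FPKM in any library (rows, grouped by role, the 7 described genes starred) in the 9 libraries (columns, KO for Jak1 knockout and WT for wild type). C3 and Cr1l are high in nearly every column, and the C1 proteases are low in the columns of 45566B and 46295.

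The genes whose profiles over the 9 libraries were nearest to each of the 7 were found among 12191 genes averaging 1 FPKM or more, by the root mean square difference of log2(FPKM + 1) values centred on each gene's mean. For C3 they were Steap4, a metalloreductase (0.89 log2 units), Ldhb, a lactate dehydrogenase subunit (1.04), and Tmem176a (1.05), against a spread of C3 itself of 2.30. Steap4 was at 0.0401 FPKM in knockout and 2.86 FPKM in wild-type cells of line 45555. For Serping1 they were Agt, which encodes angiotensinogen (0.39), Spock2 (0.48) and Cpxm1 (0.49), and Agt was at 2.50 FPKM in knockout and 90.01 FPKM in wild-type cells of line 47298. Profiles nearest to Cd55 were those of Atp2b4, a plasma membrane calcium pump (0.23), Lypd3 (0.24) and Samd12 (0.25), each at 12.7 FPKM or more in the same 4 libraries in which Cd55 was above 10 FPKM. The nearest profile to Cd59a was that of its copy Cd59b (0.43), and the second nearest to C1ra was that of C1s2 (0.48), after Ism1 (0.41). Sparcl1 was nearest to C4b (0.39) and Rasal1 to Cfb (0.81). These are descriptions over 9 libraries, of which 6 share a line.

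**Figure D4:**
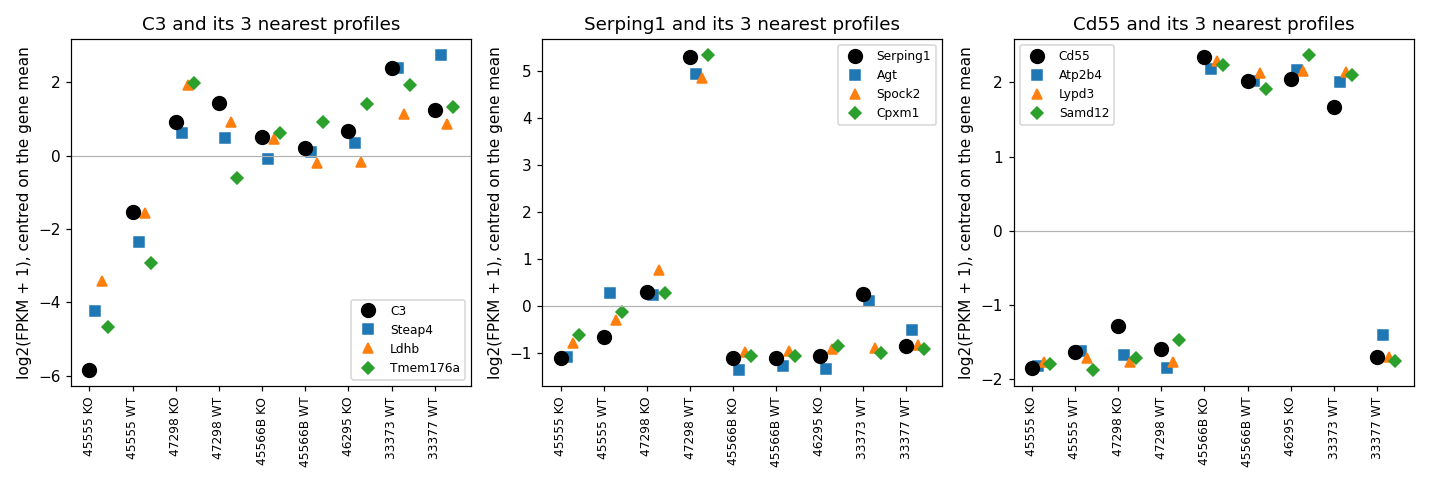
Centred log2(FPKM + 1) values (vertical axis) of C3, Serping1 and Cd55 (black circles) and of the 3 genes with the nearest profiles to each (coloured symbols, offset to the right) in the 9 libraries (horizontal axis). C3 and its neighbours are lowest in 45555 knockout, Serping1 and its neighbours stand out in 47298 wild type, and Cd55 and its neighbours are high in the same 4 libraries.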

How the data were processed

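The authors deposited FPKM per gene symbol in 2 tables of 24346 rows, with build mm10, cutadapt, TopHat2 2.1, Cufflinks 2.2 and Cuffnorm named per the submitters' processing notes, whose order and roles are unknown. Annotation, scaling option, filters and strand setting were not given in the sources used here. The smaller table held 4 of the 9 libraries at the same values and was not needed. In 4 rows the symbol occurred more than once, and these were left out, which left 24342 genes. Groups were taken from the labelled genetic status.

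Because FPKM are not counts, count models were not fitted. Genes averaging 1 FPKM or more in a comparison were tested on log2(FPKM + 1) with limma 3.58.1 (R 4.3.3), using a mean-variance trend and two-sided p-values. Benjamini-Hochberg adjustment ran over all tested genes, at 0.05. Fold changes on this scale understate those of low genes. FPKM ratios within a line are given only where both values were above 0. The pairs comparison had line as a block, and the comparison of all 9 libraries had none. The labels tie the pairs by line, and deviations from the group means correlated within lines at 0.700 (45555), 0.399 (47298) and 0.804 (45566B). With 1 library per line and state, p-values reflect the spread between these libraries, which may be technical.

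Both designs were tested on simulated data (5 runs, each with 200 shifted genes). In the pairs design (12063 genes) 41.0% of genes shifted by 2 log2 units and 82.2% of those shifted by 4 were recovered, and in the design of all libraries (12198 genes) 58.4% and 89.0%. False calls made up 5.52% and 6.12% of calls. Each simulated gene had the same spread in every library. In the data the 5th to 95th percentile of differences within a line ran from -1.87 to 1.40 in 47298. In 45566B it ran from -0.49 to 0.41, so the rates of the pairs design may not hold for the data. In the simulation of all libraries, the 2 states of a line shared no line effect. In the data they did (consensus correlation within lines 0.702), so the rates of that design may not hold for the data.

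The 7 genes, the complement list, the marker lists, the motifs and the tests were chosen with earlier results of these data known. The text could name the 7 genes, Jak1, any gene of the complement list, and the 3 nearest profiles of each of the 7. Of the complement list, 1 gene is not reported here and is left out of its counts. The choice of marker genes named followed their values. Transcripts were aligned with blastn 2.17.0. Alternatives were another pseudocount, no filter, rescaling, no variance trend, the other blocking, and leaving out libraries or lines.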

Additional observations from a re-analysis of the deposited data

Results flagged for a closer look

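A gap of 1 library from the others of its state flagged 4 values, and chance flags about 1 group in 20. C3 in 45555 knockout (1.30 FPKM) lay apart from the other 3 knockout libraries by 0.940 of the group's range on the log2(FPKM + 1) scale. Serping1 in 47298 knockout (1.64 FPKM) lay apart by 0.963 of the range of the knockout libraries, and in 47298 wild type (84.5 FPKM) by 0.786 of the range of the wild-type libraries. C4b in 47298 knockout (0.0433 FPKM) lay apart by 1.00 of the range, because it was listed at 0 in the other 3 knockout libraries.

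Opposite directions between lines flagged 3 genes, from 1 library per line and state, so the differences between lines were not tested. The difference of knockout minus wild type in log2(FPKM + 1) of C3 was -4.31 in 45555 and 0.29 in 45566B. That of Cd55 was -0.22 in 45555 and 0.32 in 45566B, and that of Cd59a was 1.06 in 45555 and -0.67 in 47298.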

How the results depend on the processing

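Over 14 fold changes (7 genes in both comparisons) and their alternatives, 158 of 161 values kept their direction and stayed not called, with a smallest adjusted p of 0.708 (limma). The filter kept C4b and Serping1 only for their wild-type levels, so their kept direction adds nothing to this count. The 3 that turned were Cd59a over the pairs without line 45555 (-0.43), and Cd55 over all libraries without 45566B knockout (-0.11) and without 46295 knockout (-0.02). Leaving out 1 line or library gave -0.43 to 0.43 for Cd59a over the pairs and -0.11 to 1.28 for Cd55 over all libraries. The cause was not tested, and each left-out fit has fewer libraries. With a pseudocount of 0.1 the log2 fold change of C4b was -3.001 over the pairs and -3.48 over all libraries, since its values are low. The count of called genes over the pairs was 0 in each alternative, including the fit with no replicate block, in which 0 genes were called. Over all libraries it was 0 to 1 when 1 library was left out and 0 in the other alternatives, including the fit with line as a replicate block. Blocking changed no call of the 7 genes. Rescaling moved the median of all genes by less than 0.1 log2 units. Depth limits the values near 0, most of all those of C4b and Serping1.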

Other observations

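Of 7 terminal-pathway genes 2 reached 1 FPKM in any library, C8g and Hc, the gene of C5. Hc did so in 1 library, at 0.988 FPKM in knockout and 2.12 FPKM in wild-type cells of line 45555, and was at or below 0.0306 FPKM in the other 7. C8g, whose product belongs to the lipocalin family, was at 0.554 to 2.91 FPKM in knockout and 0.811 to 1.89 FPKM in wild-type libraries. C8a and C8b, the alpha and beta chains of C8, were listed at 0 in every library.

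Of 9 receptor genes 2 reached 1 FPKM in any library. C5ar2, a receptor for the C5 fragment C5a, was at 14.03 FPKM in 46295 knockout, 1.10 in 45566B knockout and 1.11 in 45566B wild type, and at or below 0.223 in the other 6 libraries. Itgb2, the beta chain of the leukocyte complement receptors, was at 0.281 to 4.58 FPKM in knockout and 0.0823 to 4.34 FPKM in wild-type libraries, while its partner chains Itgam and Itgax were at or below 0.0470 FPKM. Masp1, a lectin-pathway protease, differed by line, at 67.3 FPKM in 47298 knockout, 64.9 in 47298 wild type, 72.6 in 33377 wild type and 40.4 in 33373 wild type. It was at 1.62 FPKM in knockout and 3.10 in wild-type cells of 45555, and at or below 0.206 FPKM in 46295 knockout and both states of 45566B.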
